A study of Homo sapiens with 20 samples.

Results

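The genes described here encode BET bromodomain proteins and the proteins that make up, hold back or act beside the positive transcription elongation factor P-TEFb. They were chosen by name, and 9 genes were taken of 19617 with a 3′ UTR in the deposited counts: BRD2, BRD3, CDK9, CCNT1, CCNT2, HEXIM1, LARP7, MEPCE and CDK7. Each gene was represented by the annotated transcript with the most reads over all 20 libraries. Of the 9 genes, 7 had enough T>C reads to be tested and 8 had enough total reads.

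P-TEFb is the kinase CDK9 bound to cyclin T1 or cyclin T2, and it releases RNA polymerase II from its pause near the promoter. Much of it is held inactive by HEXIM proteins on the 7SK small nuclear ribonucleoprotein, in which LARP7 and the RNA-capping enzyme MEPCE bind and protect the 7SK RNA. BET proteins read acetylated lysines on histones through paired bromodomains and help to bring active P-TEFb to genes, and a rise of HEXIM1 mRNA is a widely used marker of BET inhibition. CBP and p300, the targets of the degrader used here, are acetyltransferases that make much of the histone acetylation BET proteins read.

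MM1.S cells, an established multiple myeloma line that is sensitive to glucocorticoids, were treated with 10 nM dCBP-30, a bifunctional degrader of CBP and p300, or with the DMSO vehicle. Cells were harvested after 2, 6 or 24 h with 3 libraries in each of the 6 groups, and all 18 of these libraries came from cells given 4-thiouridine (4sU) for the last hour. A further 2 libraries came from cells without 4sU and served as background for the conversions. In SLAM-seq, alkylated 4sU is read as cytosine, so that a read with T>C conversions marks RNA made during the labelling hour, whereas total reads also count older RNA. All values come from 1 cell line, and nothing in the labels says whether the 3 libraries of a group came from separate cultures, so p-values measure the spread between these libraries, which may be technical. In bulk RNA, fewer cells with a transcript and less of it per cell cannot be told apart.

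The libraries held 12440700 to 18729086 reads on the chosen UTRs. T>C reads made up on average 6.08%, 6.38% and 8.31% of the reads under DMSO at 2, 6 and 24 h, against 5.54%, 4.98% and 6.38% under dCBP-30 and 0.801% without 4sU. The ratio of deposited conversions to T>C reads averaged 0.923 without 4sU. As this is below 1, the ratio is not a count of conversions on each T>C read. At 24 h the ratio was 1.47 ± 0.0432 under dCBP-30 and 2.48 ± 0.0253 under DMSO (SD, n = 3). In the labelled groups at 2 and 6 h its means lay between 2.17 and 2.24. The part of that drop in the T>C values at 24 h was not tested. Under DMSO, 9 of 9 plasma cell markers had a median over 10 RPM, from 131 to 1558 RPM, 4 of 4 markers of earlier B cells had a median of 0, and the medians of the T cell and myeloid markers were at most 4.56 and 0.145 RPM.

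RPM here is a gene's reads for each 1000000 of a library's total reads after multiplying that total by its TMM factor, a correction for library composition computed from total reads. With this scaling the median of the 10086 genes tested in T>C reads changed by 0.05, -0.27 and -0.69 on the log2 scale at 2, 6 and 24 h, and the median of the 12272 genes tested in total reads by -0.00071, 0.02 and 0.05. When T>C reads were scaled to one another instead, the medians were 0.05, 0.04 and -0.04. A T>C change at 6 or 24 h is therefore given beside the median, and a gene counted as passing had an adjusted p under 0.05, from the quasi-likelihood test of edgeR with p-values adjusted by Benjamini-Hochberg for all genes in the fit.

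In T>C reads, 0 of 7 genes were lower and 1 was higher at 2 h, where 8.35% of all genes tested were lower and 2.45% higher. Without adjustment, 1 of the 7 genes was lower at p under 0.05 in edgeR, and DESeq2 also called 0 lower. At 6 h, 1 gene was lower and 2 were higher, beside 21.3% and 3.02% of all genes. At 24 h, 4 genes were lower and 1 was higher, beside 37.1% and 2.77%. In total reads, 0 of 8 genes were lower and 1 was higher at 2 h, against a background of 2.67% and 1.55%, with 0 lower both without adjustment and by DESeq2. At 6 h, 2 were lower and 3 higher, against 21.5% and 18.8%, and at 24 h, 1 was lower and 3 higher, against 29.9% and 28.7%. The median log2 fold change of the 7 genes in T>C reads was -0.05, -0.19 and -0.97 at the 3 times, and that of the 8 genes in total reads was 0.13, 0.31 and 0.09.

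**Figure D1:**
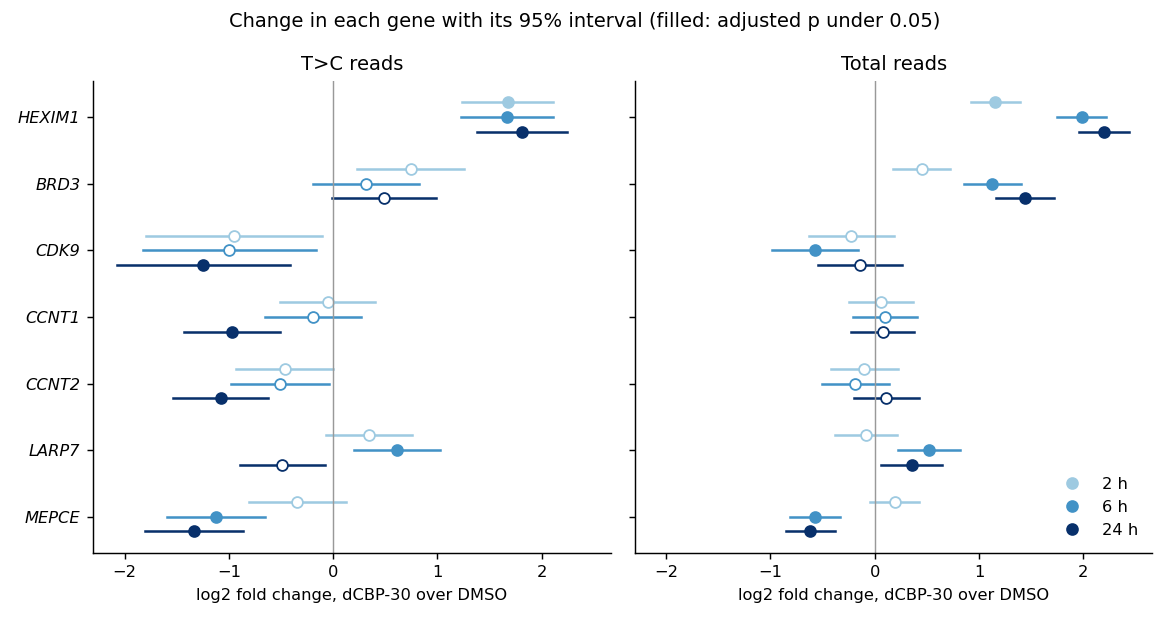
Log2 fold change of dCBP-30 over DMSO (x axis) for the 7 genes tested in both measures, in T>C reads (left) and total reads (right) at 2, 6 and 24 h, with 95% intervals; filled points had an adjusted p under 0.05. HEXIM1 lies to the right of 0 at each time in both panels, BRD3 moves right with time in total reads only, and MEPCE lies to the left of 0 at 6 and 24 h in both.

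HEXIM1, the P-TEFb inhibitor, was the one gene of the 7 to pass in T>C reads at each time. Its 3′ UTR was a single stretch at chr17:45150271-45152099 on the plus strand (hg38). At 2 h its T>C level was 26.7, 25.5 and 20.5 RPM in the 3 dCBP-30 libraries and 8.46, 5.92 and 8.36 RPM in the DMSO libraries. At 6 h it was 20.4, 19.0 and 18.6 RPM against 7.79, 4.42 and 6.04 RPM, and at 24 h it was 29.4, 29.4 and 24.5 RPM against 7.52, 6.74 and 9.50 RPM. Each dCBP-30 library lay above each DMSO library of its time, and the lowest treated library held more than 2 times the highest vehicle library at 2, 6 and 24 h. The fold changes were 3.19, 3.18 and 3.51 (log2 1.67 ± 0.223, 1.67 ± 0.225 and 1.81 ± 0.221, standard error; edgeR adjusted p = 1.98e-08, 1.28e-08 and 5.77e-10). With no 4sU, T>C reads were 0.922% of HEXIM1 reads, against 14.4% to 29.0% in the means of the treated groups.

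Total HEXIM1 reads rose too, and by more at the later times. The 3 dCBP-30 libraries held 83.1, 88.4 and 78.5 RPM at 2 h, 132, 129 and 145 RPM at 6 h, and 176, 174 and 156 RPM at 24 h. The DMSO libraries stayed between 28.6 and 40.8 RPM at the 3 times, and neither the 6 h nor the 24 h DMSO group differed from the 2 h DMSO group (edgeR adjusted p = 0.792 and 0.966). Total HEXIM1 was thus 2.23-fold, 3.96-fold and 4.59-fold higher (edgeR adjusted p = 2.06e-07, 9.76e-13 and 6.78e-14). The change at 6 h was 1.78 times and that at 24 h 2.06 times the change at 2 h, and both differences passed (edgeR adjusted p = 0.000847 and 1.71e-05). In T>C reads the corresponding ratios were 0.998 and 1.10 and did not pass (edgeR adjusted p = 1.0 and 0.8), with 95% intervals of the log2 difference from -0.66 to 0.66 and from -0.47 to 0.74. Under DESeq2 with size factors from T>C reads, the 24 h T>C difference passed (log2 0.88, adjusted p = 0.0195). The calls of HEXIM1 against DMSO passed in both measures at the 3 times under each of the 28 alternatives run for T>C reads and the 25 run for total reads. A long noncoding RNA gene, HEXIM2-AS1, overlaps this UTR on the opposite strand.

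BRD3, a BET protein with a UTR at chr9:134030305-134033589 on the minus strand, also gained total reads. At 2 h the dCBP-30 libraries held 70.0, 95.4 and 64.5 RPM and the DMSO libraries 57.3, 51.6 and 59.7 RPM. At 6 h the values were 111, 125 and 154 RPM against 61.2, 63.3 and 53.8 RPM, and at 24 h they were 161, 165 and 149 RPM against 53.6, 59.1 and 62.2 RPM. Treated libraries lay above vehicle libraries at each time, by little at 2 h and by more than 2 times at 24 h, while the vehicle groups stayed level. The fold changes were 1.36, 2.19 and 2.72, which passed at 6 and 24 h (edgeR adjusted p = 3.95e-07 and 2.92e-09) but not at 2 h (edgeR adjusted p = 0.0700). At 2 h total BRD3 passed without TMM factors, with DESeq2, with no filter, and without dCBP-30 replicate 3 of 2 h or of 6 h (log2 0.45 to 0.56). The rise grew between times, by 1.60 times from 2 to 6 h and by 1.99 times from 2 to 24 h (edgeR adjusted p = 0.0180 and 0.000222). The 6 h difference was lost when any of 4 libraries was left out, dCBP-30 replicates 1 and 3 at 2 h, dCBP-30 replicate 3 at 6 h and DMSO replicate 3 at 6 h (edgeR adjusted p = 0.0569, 0.0572, 0.0527 and 0.0555).

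New BRD3 RNA did not pass at any of the 3 times in the main fit. Its T>C level was 8.63, 14.5 and 10.3 RPM under dCBP-30 at 2 h and 8.62, 4.09 and 7.32 RPM under DMSO, so that the lowest treated and the highest vehicle library were almost level. The T>C fold changes were 1.67, 1.24 and 1.41 (edgeR adjusted p = 0.0569, 0.438 and 0.121), above that of total reads at 2 h and below it at 6 and 24 h. At 2 h BRD3 passed with T>C reads scaled to one another, without TMM factors, with DESeq2 under either set of size factors, with a filter on a mean of 20 reads, and without dCBP-30 replicate 1 or DMSO replicate 1 (log2 0.74 to 0.97). At 6 h BRD3 passed as higher with DESeq2 on T>C size factors (log2 0.69, DESeq2 adjusted p = 0.0357). At 24 h it passed as higher with T>C reads scaled to one another (log2 1.15, adjusted p = 0.000236), without TMM factors (log2 1.02) and with DESeq2 on T>C size factors (log2 1.26). On the log2 scale it stood 0.42 to 0.66 above the median gene at 6 h and 1.07 to 1.26 above it at 24 h under the 11 settings compared. BRD3OS, a protein-coding gene that overlaps the BRD3 UTR on the opposite strand, had 4785 reads in all libraries together, against 28230 for BRD3.

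**Figure D2:**
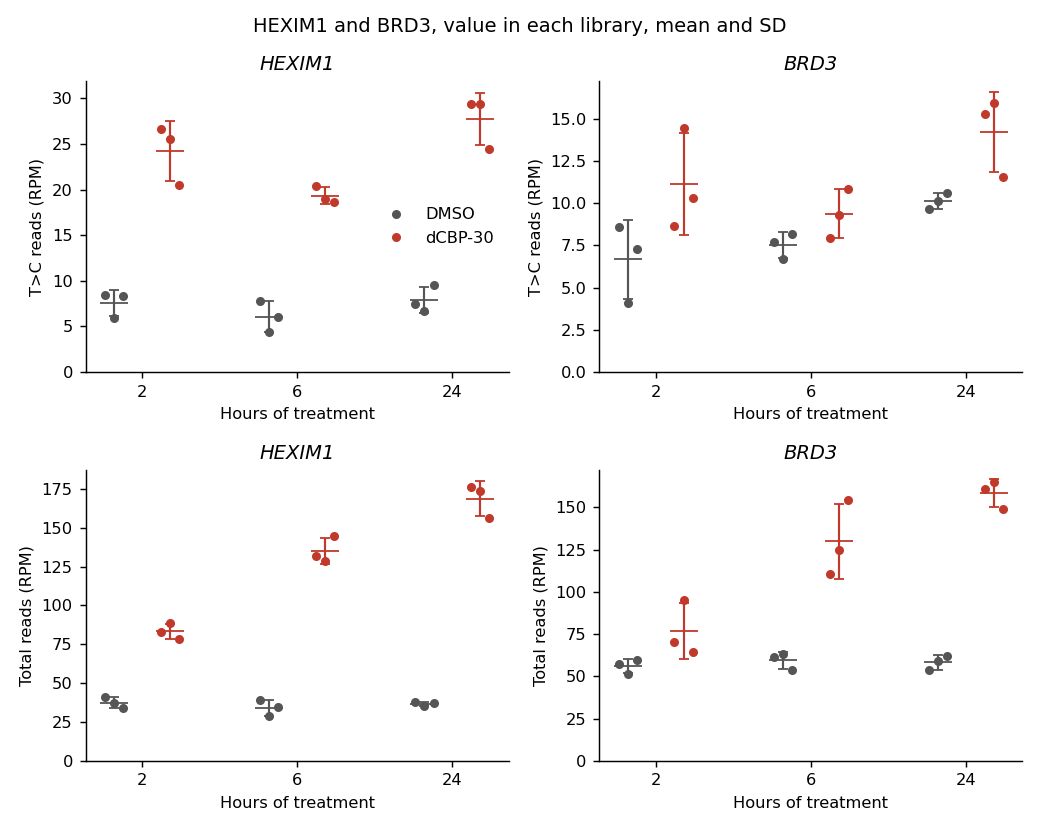
T>C reads (top) and total reads (bottom) in RPM for HEXIM1 and BRD3 in each of the 18 labelled libraries by hours of treatment; points are libraries, and bars are the mean and SD of 3. HEXIM1 T>C reads under dCBP-30 stay between 18.6 and 29.4 RPM at the 3 times while its total reads climb from a mean of 83.3 to 169 RPM, and BRD3 total reads climb from 76.6 to 158 RPM.

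The kinase subunit CDK9 was a low gene in these libraries, with 4969 reads in all 20 together on a UTR at chr9:127789544-127790792 on the plus strand. Its T>C level at 24 h was 2.74, 1.59 and 1.77 RPM under dCBP-30 and 6.28, 3.58 and 4.64 RPM under DMSO. The libraries did not overlap, and the level fell 2.37-fold (log2 -1.25 ± 0.424, standard error; edgeR adjusted p = 0.0147), beside a median gene at -0.69. At 2 and 6 h the log2 fold changes of -0.95 and -0.99 did not pass (edgeR adjusted p = 0.174 and 0.0800). At 2 h 1 DMSO library, at 1.76 RPM, lay below each of the 3 treated libraries, at 2.07, 2.64 and 1.815 RPM. Total CDK9 reads were 12.4, 9.10 and 12.2 RPM against 16.3, 15 and 18.7 RPM at 6 h, a fall of 1.49-fold (edgeR adjusted p = 0.0333), and overlapped at 2 and 24 h.

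The CDK9 calls were fragile. The 24 h T>C call was lost with T>C reads scaled to one another (log2 -0.60, adjusted p = 0.303), without TMM factors, with DESeq2 on T>C size factors and with reads summed over transcripts. It was also lost without dCBP-30 replicate 2, dCBP-30 replicate 3 or DMSO replicate 1 (edgeR adjusted p = 0.0670, 0.0507 and 0.0953). The 6 h call in total reads was lost without dCBP-30 replicate 2, DMSO replicate 1 or DMSO replicate 3 (edgeR adjusted p = 0.149, 0.0537 and 0.124). It was also lost without TMM factors (log2 -0.25) and with reads summed over transcripts (log2 -0.55). Relative to the median gene, CDK9 T>C reads at 24 h lay between -0.67 and -0.48 on the log2 scale under the 11 settings compared. The corresponding ranges were -1.02 to -0.86 at 2 h and -0.88 to -0.65 at 6 h. The distance to the median gene was larger at 2 h, where CDK9 did not pass, than at 24 h. These ranges cover the settings and not the spread between libraries, so they do not separate the 2 times. The CDK9 T>C change at 24 h minus that at 2 h was -0.297 ± 0.600 on the log2 scale (standard error). It did not pass (edgeR adjusted p = 0.775).

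The cyclin partners CCNT1 (cyclin T1) and CCNT2 (cyclin T2) passed as lower in T>C reads at 24 h, while their total reads did not pass. The T>C level of CCNT1 at 24 h was 11.3, 10.3 and 9.98 RPM in the treated libraries and 24.6, 20.6 and 16.8 RPM under DMSO. CCNT2 held 9.08, 8.51 and 9.01 RPM against 17.8, 20.4 and 18 RPM. In neither gene did the libraries overlap, and the treated libraries of both lay close together. The log2 fold changes were -0.97 for CCNT1 and -1.08 for CCNT2 (edgeR adjusted p = 0.000529 and 0.000131). Both calls were lost with T>C reads scaled to one another (log2 -0.32 and -0.43, adjusted p = 0.320 and 0.160), without TMM factors and with DESeq2 on T>C size factors, and relative to the median gene the genes lay between -0.39 and -0.21 and between -0.50 and -0.30 on the log2 scale.

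Total reads of the cyclins gave log2 fold changes at 24 h of 0.08 for CCNT1 (95% interval -0.22 to 0.38) and 0.11 for CCNT2 (95% interval -0.20 to 0.42), which did not pass (edgeR adjusted p = 0.679 and 0.562). Without TMM factors, which moves the median gene in total reads to 0.58 at 24 h, both passed as higher (log2 0.60 and 0.64), and so did CCNT1 at 6 h (log2 0.41). With TMM factors neither cyclin passed in T>C or total reads at 2 or 6 h. CCNT2 T>C reads were the lower in each treated library at 2 h (10.1, 8.32 and 7.82 RPM against 10.2, 13.7 and 12.2 RPM), a fold change of 0.725 (edgeR adjusted p = 0.249). The T>C change of CCNT1 at 24 h differed from that at 2 h by -0.92 on the log2 scale (edgeR adjusted p = 0.0307), and that of CCNT2 by -0.61, which did not pass (edgeR adjusted p = 0.176). The CCNT1 difference was lost without dCBP-30 replicate 2 or DMSO replicate 2 at 2 h, dCBP-30 replicate 3 at 24 h, or DMSO replicates 1 or 2 at 24 h (edgeR adjusted p = 0.168, 0.101, 0.0516, 0.105 and 0.0514). The UTRs counted were chr12:48688458-48695816 on the minus strand, in 2 pieces, for CCNT1 and chr2:134945918-134956843 on the plus strand, in 5 pieces, for CCNT2.

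Among the proteins of the 7SK particle, MEPCE fell in both measures. Its T>C level at 6 h was 7.18, 5.05 and 13.4 RPM under dCBP-30 and 19.3, 17.3 and 19.1 RPM under DMSO. At 24 h it was 8.37, 9.45 and 8.85 RPM against 26.0, 18.8 and 22.3 RPM. Treated libraries lay below vehicle libraries at both times, with 1 treated library at 6 h closer to the vehicle than the other two. The falls were 2.18-fold and 2.52-fold (log2 -1.12 ± 0.240 and -1.33 ± 0.239, standard error; edgeR adjusted p = 0.000181 and 5.48e-06). Relative to the median gene, MEPCE lay between -1.01 and -0.78 at 6 h and between -0.76 and -0.57 at 24 h, and the call at 24 h was lost with DESeq2 on T>C size factors (adjusted p = 0.0587).

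Total MEPCE reads held at 2 h, with 144, 171 and 137 RPM under dCBP-30 against 120, 130 and 146 RPM. They were 70.3, 88.7 and 98.9 RPM against 127, 125 and 131 RPM at 6 h, and 74.5, 75.3 and 70.0 RPM against 119, 104 and 114 RPM at 24 h. The falls of 1.49-fold and 1.53-fold passed (edgeR adjusted p = 0.00053 and 0.000115), and each differed from the change at 2 h (edgeR adjusted p = 0.00239 and 0.000464). Without TMM factors neither passed (log2 -0.25 and -0.09), while the distance to the median gene stayed between -0.67 and -0.57 over 8 settings at both times. The UTR counted for MEPCE, chr7:100433555-100434118 on the plus strand, is shared in full with another protein-coding gene annotated on the same strand as ENSG00000289690, for which the same 34509 reads were counted, so the reads cannot be divided between them.

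LARP7, which binds the 3′ end of the 7SK RNA, was higher in total reads at 6 and 24 h. Its libraries held 101, 91.6 and 78.9 RPM under dCBP-30 against 57.9, 67.0 and 64.6 RPM under DMSO at 6 h, and 82.5, 94.4 and 94.8 RPM against 59.5, 73.6 and 79.7 RPM at 24 h. Treated libraries lay above vehicle libraries at both times, by a narrow margin at 24 h. The rises were 1.43-fold and 1.28-fold (edgeR adjusted p = 0.00860 and 0.0484). The 24 h call was lost with the replicate block (edgeR adjusted p = 0.0653), with reads summed over transcripts (log2 0.34, edgeR adjusted p = 0.11) and when any of 9 libraries was left out, namely dCBP-30 replicate 1 at 2 h, 2 at 6 h and 2 or 3 at 24 h, and DMSO replicate 2 at 2 h, 2 or 3 at 6 h and 1 or 2 at 24 h. Without DMSO replicate 1 at 24 h it was lowest (log2 0.24, edgeR adjusted p = 0.219).

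In T>C reads LARP7 passed as higher at 6 h, by 1.53-fold (edgeR adjusted p = 0.0240), although the libraries overlapped, at 24.8, 17.8 and 29.8 RPM against 18.3, 16.4 and 12.6 RPM. At 24 h the log2 fold change was -0.49 (edgeR adjusted p = 0.0587), above the median gene by 0.09 to 0.37 under the 11 settings compared. LARP7 passed as lower there with the time point fitted alone, with a filter on a mean of 20 reads and without dCBP-30 replicate 3 at 24 h (log2 -0.52, -0.49 and -0.72, edgeR adjusted p = 0.0429, 0.0499 and 0.0103). The sign turned, without passing, with T>C reads scaled to one another (log2 0.15), without TMM factors (log2 0.04), with DESeq2 on T>C size factors (log2 0.25) and on the last-exon UTR (log2 0.68). The 6 h call was lost with reads summed over transcripts and without dCBP-30 replicates 1 or 3 or DMSO replicate 3 (edgeR adjusted p = 0.0613, 0.183 and 0.159). It also depended on where the gene was counted. The transcript used spans 11 pieces within chr4:112646390-112657695 on the plus strand and held 24555 reads, whereas the UTR in the last exon alone (chr4:112657328-112657586) held 1834. On that last-exon UTR, an alternative chosen after the counts were seen, the T>C change at 6 h was -0.36 on the log2 scale (adjusted p = 0.815), and the total change was 0.46 at 6 h and 0.39 at 24 h (adjusted p = 0.416 and 0.445).

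**Figure D3:**
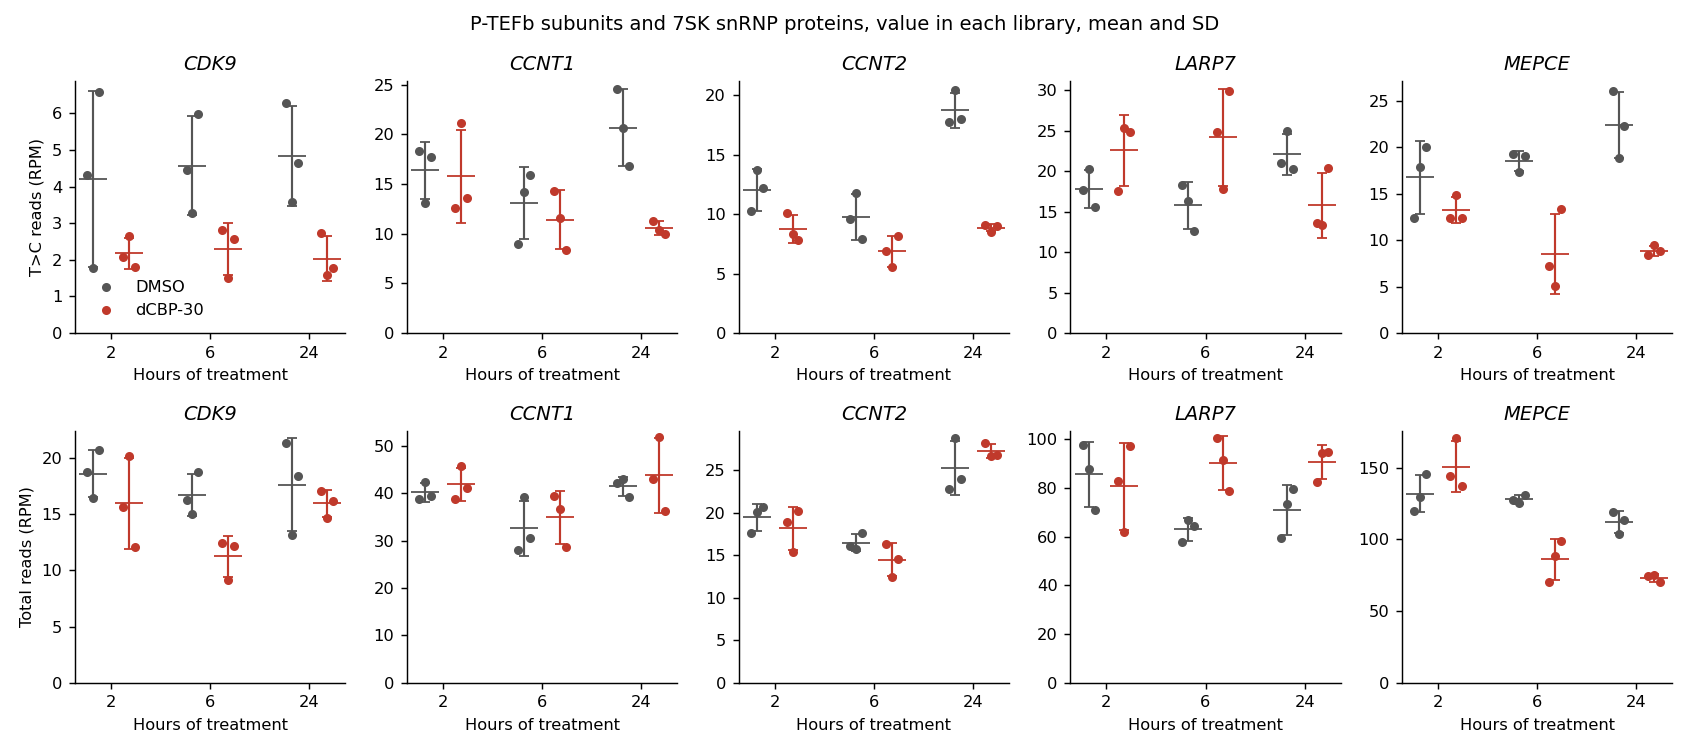
T>C reads (top) and total reads (bottom) in RPM for the P-TEFb subunits CDK9, CCNT1 and CCNT2 and the 7SK proteins LARP7 and MEPCE in each of the 18 labelled libraries by hours of treatment; points are libraries, and bars are the mean and SD of 3. At 24 h the T>C libraries of CCNT1, CCNT2 and MEPCE separate by treatment, while the total reads of CCNT1 and CCNT2 overlap.

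The other 2 genes could not be followed. BRD2, a BET protein, had 211 reads over all 20 libraries on its most-read transcript, an 87-base stretch at chr6:32976988-32977074, and all 211 were flagged as multimapping. The UTR in its last exon (chr6:32980719-32981501) had 15 reads. Of the 37 genes within 500 kb of BRD2, 28 (75.7%) had under 20 reads in all libraries together, against 29.4% of all genes. Total BRD2 reads gave log2 fold changes of 0.40, 1.04 and -0.19 with standard errors of 1.07, 1.12 and 1.05, and did not pass, and T>C reads were too few for the test. CDK7, the kinase of TFIIH that phosphorylates polymerase II and activates CDK9, was listed at 0 reads on each of its 10 transcripts in all 20 libraries, while of the 11 genes within 500 kb of it 5 had under 20 reads and 0 were at 0. These files therefore give no level for CDK7 in MM1.S cells, and why it was listed at 0 was not tested. Among the 7 genes tested in both measures, 0.232% to 1.60% of reads were flagged as multimapping.

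The share of a gene's reads that carry T>C conversions sets new RNA against all of it, and is described here without a test. CCNT2 and CCNT1 had the highest shares under DMSO, at 59.9% to 74.6% and 40.1% to 49.7% in the group means, and BRD3 and MEPCE the lowest, at 11.7% to 17.4% and 12.6% to 19.9%. HEXIM1 went from 20.4% ± 4.32 under DMSO to 29.0% ± 2.99 under dCBP-30 at 2 h (SD, n = 3), with no overlap of libraries. At 6 and 24 h its share was lower under dCBP-30 than under DMSO, at 14.4% ± 1.34 against 17.6% ± 2.25 and 16.4% ± 0.639 against 21.5% ± 3.55. The BRD3 share was 7.23% ± 0.213 against 12.8% ± 2.33 at 6 h and 8.96% ± 1.07 against 17.4% ± 0.546 at 24 h, again with no overlap, as its total reads rose and its T>C reads did not pass. At 24 h the treated shares of all 7 genes lay below each DMSO library, as did the share over all reads. In the 7 genes the mean ratio of conversions to T>C reads was 1.17 to 1.67 under dCBP-30 against 2.02 to 3.55 under DMSO.

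**Figure D4:**
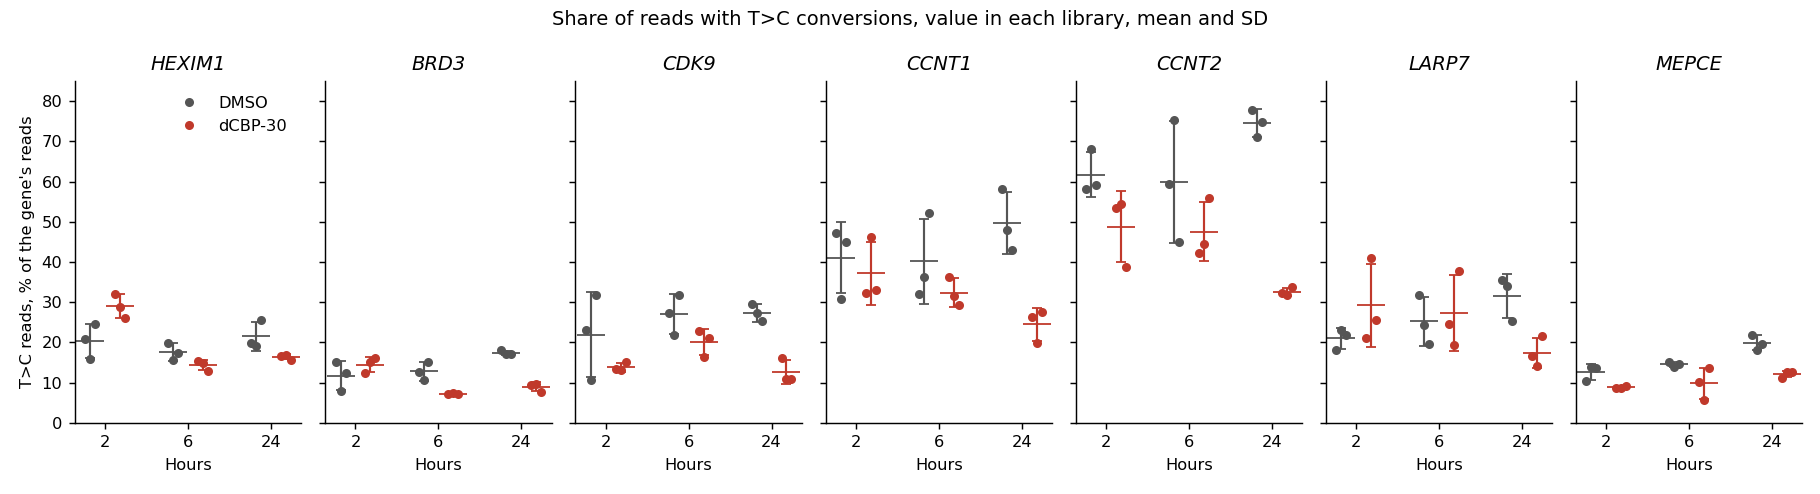
T>C reads as a percentage of each gene's reads in each of the 18 labelled libraries by hours of treatment; points are libraries, and bars are the mean and SD of 3. HEXIM1 is higher under dCBP-30 at 2 h and lower at 24 h, and at 24 h the treated libraries of each of the 7 genes lie below the DMSO libraries.

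The counts at 24 h depended on the scaling. With T>C reads scaled to one another, 1 of 7 genes was lower (MEPCE) and 2 were higher (HEXIM1 and BRD3), in place of 4 and 1. Without TMM factors the counts were again 1 and 2, and with DESeq2 on T>C size factors they were 0 and 2. HEXIM1 stood 1.63 to 1.67, 1.78 to 2.02 and 2.39 to 2.58 above the median gene on the log2 scale at the 3 times over the 11 settings compared. The absolute amount of new RNA was not measured here, and reads of the Drosophila RNA added to the samples were not used.

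**Figure D5:**
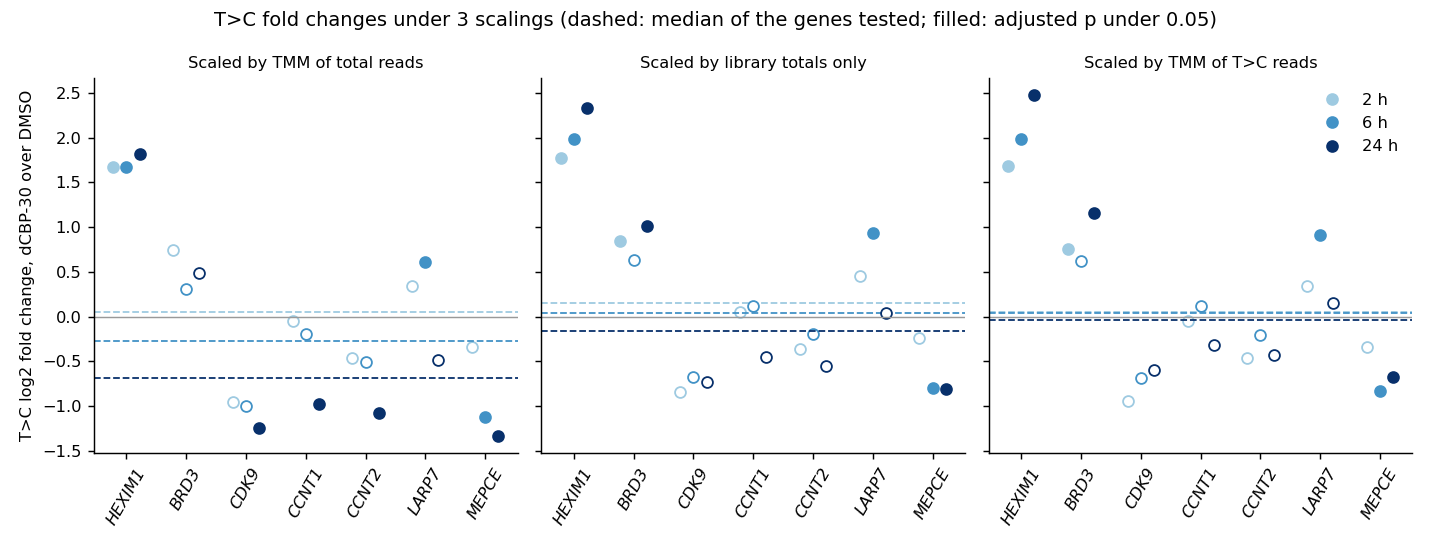
T>C log2 fold change of dCBP-30 over DMSO (y axis) for the 7 genes at 2, 6 and 24 h under 3 scalings: TMM factors from total reads, library totals alone, and TMM factors from T>C reads; dashed lines mark the median of the genes tested, and filled points had an adjusted p under 0.05. HEXIM1 is filled at each time in the 3 panels, MEPCE is filled at 6 and 24 h, and CDK9, CCNT1 and CCNT2 are filled only at 24 h in the left panel.

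Around these genes, lists of pathway partners were counted in the same fits, with medians beside those of all genes. Of 7 further 7SK-binding proteins, 6 fell in T>C reads at both 6 and 24 h, 5 of them by over 2-fold, where 21.3% and 37.1% of all genes were lower. The list medians were -1.69 and -2.06, against -0.27 and -0.69 for all genes. DDX21, an RNA helicase that binds 7SK, fell from 43.4 ± 3.09 to 4.66 ± 0.788 RPM at 6 h, and SRSF2, a splicing factor bound to 7SK at promoters, from 127 ± 16.1 to 19.4 ± 2.71 RPM at 24 h (SD, n = 3; edgeR adjusted p = 5.37e-20 and 1.58e-21). SYNCRIP, an hnRNP protein, passed as lower at each time (log2 -0.65, -1.87 and -2.11). HEXIM2, the paralogue of HEXIM1, did not pass in T>C reads in the main fit (log2 0.14, 1.24 and -0.65) and was higher in total reads at 6 h by 1.81-fold (edgeR adjusted p = 0.000729). Under the 4 other scalings and tools the counts of lower genes were 6 at 6 h and 5 or 6 at 24 h. In 3 of them 1 gene, HEXIM2, passed as higher in T>C reads at 6 h.

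Of 24 tested genes for pause release and elongation, 2 were lower and 1 higher in T>C reads at 2 h, beside 8.35% and 2.45% of all genes. At 6 and 24 h, 6 and 8 were lower, shares near the 21.3% and 37.1% of all genes that were lower. At both times 0 were higher, beside 3.02% and 2.77%. The list medians of -0.26 and -0.45 stood beside -0.27 and -0.69 for all genes. Without adjustment, edgeR gave 1 and 0 higher genes there, and DESeq2 with total-read size factors called 0 higher at both. ELL, a subunit of the super elongation complex that carries P-TEFb, was lower at each time, from 18.9 ± 1.93 to 10.4 ± 0.836 RPM at 2 h and from 18.9 ± 2.17 to 5.51 ± 0.317 RPM at 6 h (edgeR adjusted p = 0.00232 and 8.29e-10). Its paralogue ELL2 and MLLT3, a YEATS-domain subunit, were lower at 6 h (log2 -1.85 and -2.10) and 24 h (log2 -1.64 and -2.18). AFF1, a scaffold of that complex, was lower at 2 h (log2 -1.02, edgeR adjusted p = 0.0483), and NELFA, a subunit of the pausing factor NELF, was higher (log2 0.77, edgeR adjusted p = 0.0468). Both calls were near the threshold. The count of lower genes at 2 h was 1 without TMM factors and 3 with DESeq2, in place of 2. The count at 24 h turned with scaling, to 1 lower and 3 higher with T>C reads scaled to one another, and the list medians at 6 and 24 h then became 0.04 and 0.18. Without TMM factors and with DESeq2 on T>C size factors, 1 gene was again lower at 24 h. At most 1 of ELL, ELL2 and MLLT3 therefore kept its 24 h call under each of these scalings.

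In TFIIH with its CDK-activating kinase partners, 6 of 9 genes could be tested in T>C reads. Of these 6, edgeR called 0 lower at 2, 6 and 24 h, beside 8.35%, 21.3% and 37.1% of all genes. It called 0 higher, beside 2.45%, 3.02% and 2.77%. Without adjustment 1 gene was higher at 6 h and 0 moved at 2 or 24 h, and DESeq2 with total-read size factors also called 1 higher at 6 h and 0 elsewhere. Among 33 other readers with bromodomains or YEATS domains, 11 were lower and 2 higher in T>C reads at 24 h, while 5 were lower and 18 higher in total reads. Over all genes, 37.1% were lower and 2.77% higher in T>C reads at that time, and 29.9% and 28.7% in total reads, so the T>C count of lower readers was near that of genes at large. The share of readers higher in total reads was above that of all genes. The list medians at 24 h were -0.35 in T>C reads and 0.39 in total reads, against -0.69 and 0.05 for all genes. BAZ2A, a subunit of a nucleolar remodelling complex, fell early, from 18.4 ± 2.80 to 5.09 ± 1.71 RPM of T>C reads at 2 h (edgeR adjusted p = 2.55e-09). ATAD2, an ATPase with a bromodomain, fell at 24 h from 19.9 ± 1.59 to 2.98 ± 1.74 RPM, and the ubiquitin ligase TRIM24 also fell (log2 -2.28). The other named readers were SMARCA2 (log2 -0.72) and ZMYND8 (log2 -0.57) at 2 h, PBRM1 (log2 -1.63), YEATS2 (log2 -1.26) and BRD9 (log2 -1.08) at 6 h, and YEATS4 (log2 -2.44) at 24 h. With T>C reads scaled to one another the 24 h count of readers became 5 lower and 8 higher.

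HEXIM1 was set beside 5 other genes used as markers of BET inhibition, of which the serine protease inhibitor SERPINI1, ZCCHC24 and H2BC21 are known to rise and CCR2 and CD180 to fall. ZCCHC24 rose in total reads from 7.27 ± 0.754 to 14.1 ± 1.67 RPM at 2 h and from 7.34 ± 1.17 to 29.9 ± 5.49 RPM at 24 h (edgeR adjusted p = 0.00456 and 3.59e-09). Its T>C reads passed as higher at 2 and 24 h (log2 1.72 and 1.48) but not at 6 h. H2BC21, a histone H2B gene, had 92 T>C reads in the 3 dCBP-30 libraries at 2 h and 2 in the DMSO libraries, and its total reads rose 8.61-fold, 6.26-fold and 8.07-fold at the 3 times. SERPINI1 rose 4.71-fold in total reads at 24 h (edgeR adjusted p = 0.000534) and did not pass at 2 or 6 h (log2 -0.38 and 0.32, edgeR adjusted p = 0.79 and 0.634). CCR2 had 0 T>C reads in the dCBP-30 libraries at each time against 12, 40 and 51 under DMSO, and its total reads went from 281 under DMSO to 9 under dCBP-30 at 6 h. CD180 had at most 2 reads in a group and was not tested. In T>C reads 3 of the 5 markers could be tested, with 2 higher and 0 lower at 2 h. At 6 h 0 were higher and 1 was lower, and at 24 h 2 were higher and 1 was lower. Over all genes tested, 2.45%, 3.02% and 2.77% were higher and 8.35%, 21.3% and 37.1% lower at these times.

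The genes whose T>C level followed HEXIM1 most closely over the 18 labelled libraries were SERTAD1 (Pearson r = 0.926), MXD1 (0.917) and SESN2 (0.844), among 4783 genes that averaged 50 or more T>C reads a library. The points share libraries and the treatment, so the coefficients are a description. MXD1, a transcriptional repressor that pairs with MAX, was higher at the 3 times (log2 1.2, 1.46 and 1.56), and SERTAD1, a regulator of cell cycle transcription, by 2.49, 2.25 and 1.70. SESN2, a stress-induced inhibitor of mTORC1, was higher at 2 and 6 h (log2 1.59 and 1.38) but did not pass at 24 h (log2 0.40). Within the set, BRD3 came closest to HEXIM1 (r = 0.697, rank 37). MEPCE (r = -0.719, rank 4144), CDK9 (r = -0.642, rank 3722) and CCNT2 (r = -0.585, rank 3364) ran opposite. CCNT1, near the middle of the ranking, also had a negative coefficient (r = -0.409, rank 2365), so running opposite was common among the 4783 genes.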

How the data were processed

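MM1.S libraries were made with a 3′ mRNA kit and sequenced by the authors, who trimmed reads with TrimGalore, ran Slamdunk with default settings on hg38 3′ UTRs and collapsed the output per transcript. The authors deposited raw counts per transcript (total reads, T>C reads, conversions, covered T positions and multimapping reads), with no normalization and no pooling. The kit reads the sense strand, and the strand setting of the counting is not given in the sources used here.

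Of 97466 transcript rows, 89088 (91.4%) matched GENCODE release 44 by identifier, and the others held 0.0789% to 0.199% of a library's reads. Each gene was its transcript with the most reads over 20 libraries. edgeR 4.0.16 (R 4.3.3) fitted 1 mean per group over 18 labelled libraries, robustly, with library sizes of total reads multiplied by TMM factors and genes kept by filterByExpr (minimum count 10), separately for T>C and total reads. Standard errors are the log2 fold change over the square root of its F statistic, and 95% intervals are normal. DESeq2 1.42.0 was an alternative, as were other scalings and filters, single time points, subtraction of the no-4sU conversion share, reads summed over transcripts, a replicate block and each library left out; another UTR for LARP7, CCNT1 and CCNT2 and the tests of total-read differences between times were added after the data were seen. The scripts were tested on simulated data: of genes changed 2-fold in simulation, 17.0% to 19.5% were recovered in T>C reads (10086 genes) and 64.5% to 66.5% in total reads (12272 genes). Fewer genes were changed in the simulation than passed in the data at each time, which makes its adjusted p-values stricter. The recovery also pools genes with few and many reads, so it does not give the share missed among the genes reported here. Drosophila 4sU RNA was added before alkylation, per the methods, and was not used here. Total counts per library were 12440700 to 18729086.

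The members and the lists were chosen with earlier results of these data known. Named genes were the members and, per list and time, at most 3 with the largest T>C change among passing genes whose higher group averaged 20 or more T>C reads and whose libraries did not overlap, and for HEXIM1 and BRD2 the 3 genes most alike in T>C level (BRD2 had too few reads); HEXIM2, SERPINI1, CCR2 and CD180 were named after their values were seen. T>C likeness used log2(RPM + 1).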

Additional observations from a re-analysis of the deposited data

Results flagged for a closer look

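For 5 of the genes the size of the change under dCBP-30 differed between time points, by a test of the difference itself in edgeR. In T>C reads the log2 change at 24 h minus that at 2 h was -0.92 for CCNT1, -0.83 for LARP7 and -0.99 for MEPCE (standard errors 0.329, 0.297 and 0.335; adjusted p = 0.0307, 0.0311 and 0.0218). These 3 differences did not pass with T>C reads scaled to one another (log2 -0.27, -0.19 and -0.34), and they were lost when any of 5, 7 and 3 libraries was left out, with adjusted p up to 0.168 without dCBP-30 replicate 2 at 2 h, 0.0931 without DMSO replicate 2 at 24 h and 0.0808 without DMSO replicate 1 at 2 h.

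In total reads the change at 6 h minus that at 2 h was 0.68 for BRD3, 0.83 for HEXIM1 and -0.76 for MEPCE on the log2 scale (adjusted p = 0.018, 0.000847 and 0.00239). At 24 h minus 2 h it was 0.99 for BRD3, 1.05 for HEXIM1 and -0.81 for MEPCE (adjusted p = 0.000222, 1.71e-05 and 0.000464). The MEPCE difference at 24 h did not pass without TMM factors (log2 -0.39, adjusted p = 0.0767).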

How the results depend on the processing

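Over 29 settings, 1866 of 1974 comparisons with the main values kept their call (values that passed in neither fit may differ in sign), 70 fell below it, 36 rose past it and 2 reversed, both for LARP7 on its last-exon UTR, chosen after the data were seen (T>C reads at 6 h -0.36, and 24 h minus 2 h 0.81, on the log2 scale). The 1974 include results far from passing and fits that left out a library of another time. The number kept is therefore no measure of how firm the passing calls are. In T>C reads, the number of genes lower at 2 h ranged from 0 to 1 with each library left out, with 1 (CDK9) without DMSO replicate 2, and the number higher was 2 with T>C scaling, without TMM factors, with DESeq2 under both sets of size factors and with a mean of at least 20 reads, and 1 to 2 with libraries left out. At 6 h the number higher was 1 with reads summed over transcripts, 3 with DESeq2 on T>C size factors and 1 to 2 with libraries left out. At 24 h the number lower was 1 with T>C scaling, 1 without TMM factors and 0 with DESeq2 on T>C size factors, where the number higher was 2 under each. It was 3 with reads summed over transcripts and without dCBP-30 replicate 2 or DMSO replicate 1 at 24 h, and 5, with LARP7 added, with each time fitted alone and with a mean of at least 20 reads. In total reads, the number higher at 2 h was 2 without TMM factors, with DESeq2 and with no filter, and 1 to 2 with libraries left out. At 6 h the number lower was 0 without TMM factors, 1 with reads summed over transcripts and 1 to 2 with libraries left out, and at 24 h, without TMM factors, 0 were lower and 5 higher. The number higher there was 2, without LARP7, with reads summed over transcripts and with the replicate block, and 2 to 3 with libraries left out. Equal replicate numbers did not deviate together (correlations of -0.105 to 0.0299), and with the replicate block the total-read change of LARP7 at 24 h was 0.35 (adjusted p = 0.0653), with no other call of the genes changed. Depth limits T>C reads most: CDK9 had 4969 reads in all, and of simulated 2-fold changes 17 to 19.5% were recovered in T>C reads. That simulation changed fewer genes than passed in the data and pooled genes of all depths, so its recovery is not that of the genes reported here.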
